A study of Mus musculus with 6 samples.

Results

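Fc receptors bind the constant part of antibodies and couple antibody-coated particles to the cells that carry them. The 8 genes described here were taken by name as the family of activating, inhibitory and B cell Fc receptors, namely Fcgr1, Fcgr3, Fcgr4, Fcer1g, Fcgr2b, Fcgrt, Fcer2a and Fcrla, out of 29097 genes listed in the deposited table. All 8 were among the 10440 genes that were tested, those whose FPKM averaged at least 1 over the libraries (FPKM scales fragments to gene length and library total, so it can be compared between genes). They were read in 6 Smart-seq2 libraries of neutrophils sorted by FACS as CD45+CD11b+Ly6G+ cells from the peripheral blood (PB) of 8-week-old male wild type C57BL/6 mice. In the 3 LIP libraries the mice had carried silk ligatures around their second molars, upper and lower, on both sides, for 14 d, which induces periodontitis, and in the 3 Ctrl libraries the mice of the same strain were left without ligature. Each library was a pool of the neutrophils of 5 mice, so the spread between libraries is that between pools, not between single mice. The ligature is a local model of periodontitis in otherwise healthy young mice, and no group was given another allele or agent.

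IgG receptors of mouse myeloid cells come in opposed kinds. FcγRI (Fcgr1), FcγRIII (Fcgr3) and FcγRIV (Fcgr4) signal through the FcRγ chain (Fcer1g), whose cytoplasmic tail carries a pair of tyrosines in an immunoreceptor tyrosine-based activation motif (ITAM), a docking site for the kinase Syk once phosphorylated. FcγRIIB (Fcgr2b) carries the inhibitory counterpart, an ITIM with a single tyrosine, which recruits the phosphatase SHIP and dampens the activating receptors, and on B cells it dampens the antigen receptor. FcRn (heavy chain Fcgrt, light chain B2m) recycles IgG inside cells, CD23 (Fcer2a) is the low-affinity IgE receptor of B cells, and Fcrla is an Fc receptor-like protein kept inside B cells.

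The coding stretches that set the activating chain apart from the inhibitory receptor are shown first, since the comparison of both sides is what the values below turn on. They were read from the GENCODE transcripts of GRCm38, on the minus strand of chromosome 1, with the tyrosine codons of the motif in capitals. The Fcer1g stretch holds codons 65 to 79 of 86, with 18 bases on each side, and its exons lie within chr1:171229871-171230998. The Fcgr2b stretch holds codons 317 to 322 of 340, with the same flanks, within chr1:170961053-170961201, and it too spans an intron. The letters of the ITIM pattern also occurred in coding sequences of other members, at places that are not known as signalling motifs.
Fcer1g ITAM: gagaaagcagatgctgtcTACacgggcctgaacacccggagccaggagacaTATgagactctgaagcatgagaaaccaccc
Fcgr2b ITIM: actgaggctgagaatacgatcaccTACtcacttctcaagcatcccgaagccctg

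Outside that tail, Fcgr2b and Fcgr3 are much alike. Their coding sequences were identical at 86.7% of aligned bases, where the other 5 pairs of IgG receptors ranged from 64.1% to 68.6%, and the longest run they shared was 129 bases, against 9 to 14 bases in the other pairs. The run lies at bases 278 to 406 of the Fcgr2b coding sequence and at bases 263 to 391 of that of Fcgr3, in exons for the extracellular part. It is shorter than a read of 150 bases, so only a trimmed read could lie wholly inside it.
Run shared by Fcgr2b and Fcgr3: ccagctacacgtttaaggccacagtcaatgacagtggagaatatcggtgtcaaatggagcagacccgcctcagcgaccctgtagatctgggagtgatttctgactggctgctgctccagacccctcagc
No window of 150 bases, the length of 1 read, was shared between these genes. Of the transcripts of the 8 members, those of Fcgr2b had such windows in common with other genes, 114 of 5932 (1.92%), with Cplx2, Rab3c, Gm47409 and Gm38204.

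Promoter sequence was available for all 8 members (RefSeq starts on GRCm38.p6). The hexamer GAGGAA, read on either strand and holding the core GGAA that Ets family factors such as the myeloid factor PU.1 recognize, was found in the window from 250 bases before to 50 bases after the start for 4 of the 8 members, and in 28.3% of 32851 promoters. The members had 11 promoters, and a member was counted if any of its promoters held the hexamer, whereas the 28.3% counts promoters singly. Fcgr3 had a further start, not printed, with the hexamer beginning 15 bases before it. In each of the 4 members the hexamer lay as TTCCTC within 60 bases before the start, and the 120 bases before the start are printed with it in capitals. They come from chr3:96293970-96294089 (Fcgr1, minus strand), chr1:171059404-171059523 (Fcgr3, minus strand), chr1:171018806-171018925 (Fcgr4, plus strand) and chr1:170927584-170927703 (Fcrla, minus strand).
Fcgr1: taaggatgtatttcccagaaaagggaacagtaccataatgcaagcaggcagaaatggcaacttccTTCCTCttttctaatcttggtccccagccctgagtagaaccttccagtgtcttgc
Fcgr3: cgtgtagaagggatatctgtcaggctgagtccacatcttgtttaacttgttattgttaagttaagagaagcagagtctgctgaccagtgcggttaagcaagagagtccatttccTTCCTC
Fcgr4: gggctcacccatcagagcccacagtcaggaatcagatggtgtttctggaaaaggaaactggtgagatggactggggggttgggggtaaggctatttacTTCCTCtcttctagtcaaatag
Fcrla: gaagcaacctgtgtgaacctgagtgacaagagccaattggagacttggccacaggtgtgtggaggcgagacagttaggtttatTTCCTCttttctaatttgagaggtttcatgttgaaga
The longest run common to a pair of these windows was 15 bases, in Fcgr1 and Fcrla, and it took in the capitals. The letters TTCNNNGAA, the half-sites of the element that STAT factors bind after interferon, were found in the promoter of Fcgr1 alone among the members, starting 109 bases before the start, and in 8.30% of all promoters. The hexamer does not divide the members by their direction below, since Fcrla carries it and Fcer1g does not.

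Read totals ranged from 52186555 to 57262379 per library, and the smallest count of any member was 228 reads (Fcgr1 in Ctrl replicate 3). Smart-seq2 reads carry no molecular identifiers, and a count includes PCR copies. The sort was checked against marker lists. All 21 mature neutrophil markers were called higher in LIP by edgeR with TMM normalization, and their summed FPKM was 17806 to 21359 in Ctrl and 57413 to 62422 in LIP, led by S100a9, S100a8 and Retnlg. Markers of other blood cells were present in both groups. Summed FPKM of the 12 B cell markers was 2964 to 3224 in Ctrl and 380 to 425 in LIP, that of the 9 erythroid markers with values 180805 to 187038 and 19507 to 20218, that of the 9 T cell markers 309 to 350 and 51.8 to 61.6, and that of the 9 monocyte markers 145 to 157 and 229 to 253. Of the 9 monocyte markers 8 were called higher with TMM and 1 lower. The 6 platelet markers were all called higher with TMM (median log2 1.24), with sums of 768 to 1027 in Ctrl and 1654 to 1924 in LIP. Of the 6 NK cell markers 2 were called higher and 0 lower, with sums of 199 to 239 and 193 to 213. Of the eosinophil and basophil markers 2 of 5 tested were called higher, and no dendritic cell marker reached the limit for testing. All 29097 genes listed had reads, so the listing cannot show a marker without any. Values were listed for 9 of 10 erythroid markers and for 6 of 7 eosinophil and basophil markers. In such bulk samples fewer cells of a type and less RNA per cell cannot be told apart, and the part that these differences between the sorted pools play in the results was not tested.

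Between LIP and Ctrl, 4 members were called higher (Fcgr2b, Fcgr3, Fcgr4 and Fcer1g), 2 were called lower (Fcer2a and Fcrla) and 2 were not called (Fcgr1 and Fcgrt), at an adjusted p under 0.05. Over all genes tested 53.6% were called, 26.5% higher and 27.2% lower, so a call alone is common here. In counts scaled by TMM, the LIP libraries lay all above the Ctrl libraries for 5 members and all below for 2, against 30.3% and 33.1% of all genes tested. In FPKM the groups overlapped for Fcgr2b, which is among the 5. The median log2 fold change of the members was 0.56 and that of all genes −0.10. The calls rest on TMM normalization, which sets the bulk of genes to no change. The 21 mature neutrophil markers had log2 fold changes from 0.39 to 2.51 with TMM (median 1.84). When libraries were instead scaled so that the geometric mean of these markers was level, the median of all genes moved by −1.67 on the log2 scale. Then 0 members were called higher and 5 lower, beside 111 higher and 8927 lower of all 10440 genes tested.

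**Figure D1:**
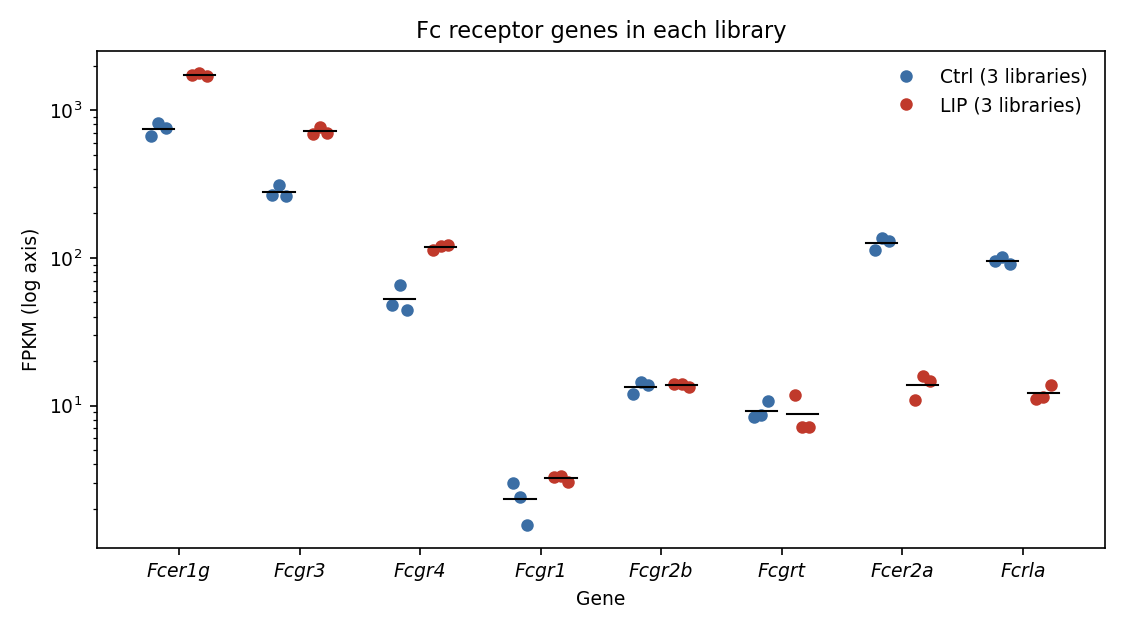
FPKM of the 8 Fc receptor genes (log axis) in the 3 Ctrl (blue) and 3 LIP (red) libraries, 1 point per library and a black line at the mean. Fcer1g, Fcgr3 and Fcgr4 sit higher in every LIP library, Fcer2a and Fcrla sit lower in every one, and Fcgr2b, between 12.04 and 14.4 FPKM, overlaps between the groups on this scale.

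Per length, Fcer1g was the most abundant member in both groups, followed by Fcgr3, and Fcgr1 was the least abundant. In Ctrl the order below Fcgr3 was Fcer2a, Fcrla, Fcgr4, Fcgr2b and Fcgrt, and no neighbours in it overlapped. In LIP Fcgr4 came next after Fcgr3, and Fcer2a, Fcgr2b, Fcrla and Fcgrt followed with each neighbouring pair overlapping between libraries. As a share of the summed FPKM of the 8 genes, Fcer1g made up 56.3% ± 1.51 (SD, n = 3) in Ctrl and 66.1% ± 0.797 in LIP, and Fcgr3 21.1% ± 1.10 and 27.4% ± 0.792. The share of Fcer2a was 9.54% ± 0.340 in Ctrl and 0.525% ± 0.0900 in LIP.

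Of the activating side, Fcer1g, the shared signalling chain, had FPKM of 671, 816 and 760 in the Ctrl libraries and of 1731, 1772 and 1706 in the LIP libraries. Every LIP library was above every Ctrl library. CPM, the counts scaled to the TMM-normalized library total, rose from 635 ± 72.3 (SD, n = 3) to 1821 ± 34.7, which was 2.87-fold (95% interval 2.48 to 3.32, log2 1.52 ± 0.0950 SE, adjusted p = 7.18e-07). Scaled on the neutrophil genes its log2 fold change was −0.15 (adjusted p = 0.136). Its distance above the median of all genes was 1.61 there and 1.61 with TMM, since a change of scaling moves all genes together. Monocytes, NK cells and platelets use this chain too, and the part of the monocyte and platelet marker sums given above in its values was not tested. The part of monocyte RNA in the values of the myeloid receptors Fcgr1, Fcgr3 and Fcgr4, given next, was not tested either.

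Fcgr3, the low to medium affinity receptor for IgG complexes, had FPKM of 267, 313 and 260 in Ctrl and of 692, 768 and 704 in LIP. The groups did not overlap. Its CPM rose from 472 ± 54.6 to 1502 ± 80.2, by 3.18-fold (2.73 to 3.71, log2 1.67 ± 0.1003, adjusted p = 5.80e-07), the largest rise among the members on the TMM scale. When libraries were scaled on the neutrophil genes it was level with their geometric mean, not with each of them (log2 −0.0048, adjusted p = 0.964).

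Fcgr4, which binds IgG2a/c and IgG2b, had FPKM of 47.9, 65.8 and 44.0 in Ctrl and of 112, 121 and 122 in LIP. Ctrl replicate 2 was the highest of its group and still below all LIP libraries. Its CPM rose from 64.1 ± 15.0 to 178 ± 7.09, by 2.78-fold (2.18 to 3.56, log2 1.48 ± 0.160, adjusted p = 2.87e-05), and its log2 fold change with the neutrophil scaling was −0.20 (adjusted p = 0.267).

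Fcgr1, the high-affinity IgG receptor, was close to the lower limit for testing, with FPKM of 2.99, 2.41 and 1.55 in Ctrl and of 3.30, 3.33 and 3.05 in LIP. All LIP libraries were above all Ctrl libraries, but Ctrl replicate 1 came near to them. CPM was 5.81 ± 1.76 and 10.04 ± 0.492, with a log2 fold change of 0.79 ± 0.317 and an adjusted p of 0.0568. Without Ctrl replicate 1 the log2 fold change was 1.00 and the adjusted p 0.0439. With median-of-ratios factors the adjusted p was 0.0479, and over 16 alternatives it ranged from 0.00798 to 0.229, with 4 calling the gene higher and 1, the neutrophil scaling, lower.

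The inhibitory Fcgr2b had FPKM of 12.04, 14.4 and 13.7 in Ctrl and of 13.9, 13.9 and 13.3 in LIP, which overlap. On the TMM scale the groups did not overlap, with CPM of 66.4, 82.2 and 77.3 in Ctrl and of 97.2, 96.4 and 91.9 in LIP. The rise was 1.26-fold (1.05 to 1.53, log2 0.34 ± 0.123, adjusted p = 0.0399), with an adjusted p of 0.0466 when replicate number was added as a block. This call was not stable. Of 17 alternative fits 5 called the gene higher and 1, the neutrophil scaling, called it lower (log2 −1.33, adjusted p = 3.75e-06). The call of higher was made in 1 of 6 fits that left out a library. In these the adjusted p ran from 0.0160 without Ctrl replicate 2 to 0.114 without Ctrl replicate 1. The call was lost with library totals (log2 0.02, adjusted p = 0.904). Fcgr2b is used by B cells as well as myeloid cells, and the B cell marker sum given above differed between the groups. The part of B cell RNA in its values was not tested.

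**Figure D2:**
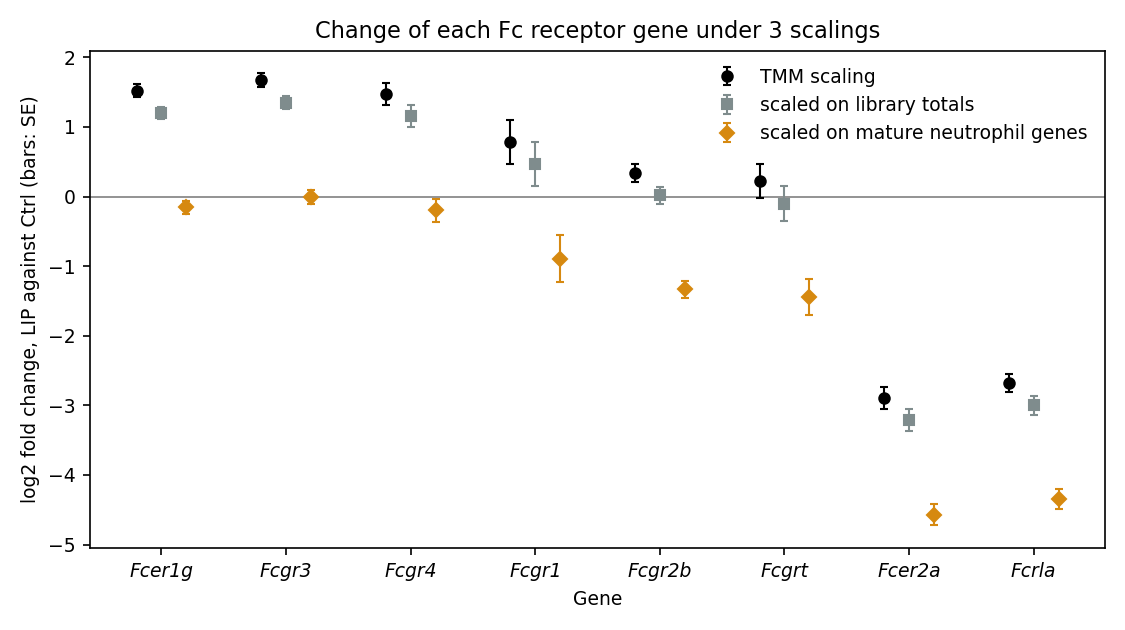
log2 fold change of each Fc receptor gene, LIP against Ctrl, with SE as bars, after TMM scaling (black circles), with library totals (grey squares) and with libraries scaled on the mature neutrophil genes (orange diamonds). The scaling moves all genes together, so that Fcer1g, Fcgr3 and Fcgr4 lie at 1.48 to 1.67 with TMM and at −0.20 to −0.0048 with the neutrophil scaling, while the order of the genes is the same under all 3 scalings.

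Ratios taken inside each library do not depend on how libraries are scaled against each other, but they do depend on the mixture of cells in each. The summed FPKM of Fcgr1, Fcgr3 and Fcgr4 over that of Fcgr2b was 26.2, 26.3 and 22.1 in the Ctrl libraries and 57.7, 63.7 and 62.1 in the LIP libraries. The groups were far apart beside their spread, and the log2 ratio was higher by 1.30 in LIP, a 2.47-fold difference. The exact permutation test (two-sided) gave p = 0.1, which is the smallest that 3 libraries against 3 allow, and 0.36 after adjustment over the 6 ratios computed. Leaving out each library in turn gave differences from 1.22 to 1.34. Fcgr2b is also a B cell gene, and the summed B cell markers were at 2964 to 3224 FPKM in Ctrl and 380 to 425 in LIP. The part of that difference in the ratio was not tested.

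Within the activating side, the groups overlapped in both proportions. The same sum over Fcer1g was 0.475, 0.467 and 0.402 in Ctrl and 0.467, 0.503 and 0.486 in LIP (log2 difference 0.12, exact permutation p = 0.3, adjusted 0.36), and the difference was 0.04 without Ctrl replicate 3. Fcgr4 over Fcgr3 was 0.179, 0.210 and 0.1696 in Ctrl and 0.162, 0.157 and 0.174 in LIP (log2 difference −0.18, exact permutation p = 0.2, adjusted 0.36). This overlap rested on Ctrl replicate 3, without which the difference was −0.24 at the smallest exact permutation p of 0.1, and without Ctrl replicate 2 the difference was −0.09.

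**Figure D3:**
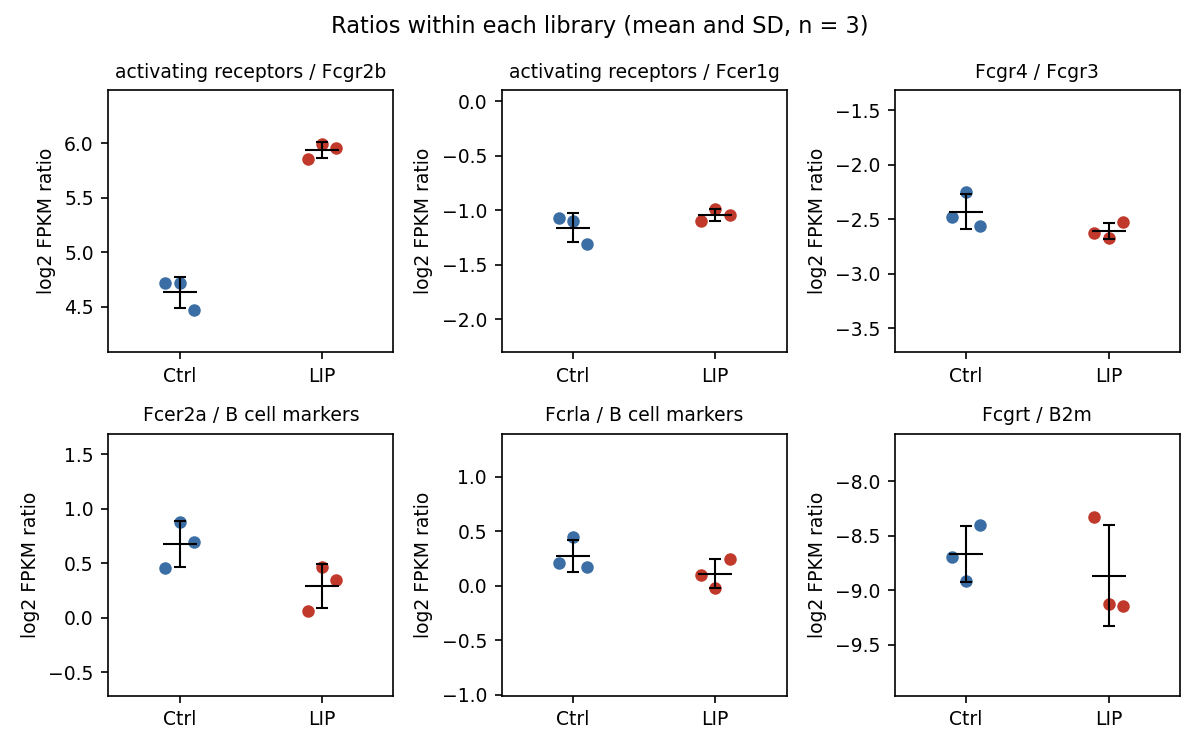
log2 of 6 FPKM ratios within each library, with points for the 3 Ctrl (blue) and 3 LIP (red) libraries and the mean and SD in black; all panels span the same height on the log2 scale. The ratio of the activating receptors to Fcgr2b is higher by 1.30 in LIP with no overlap, beside B cell marker sums of 2964 to 3224 FPKM in Ctrl and 380 to 425 in LIP, and the groups overlap in the other 5 ratios.

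Fcgrt, the heavy chain of FcRn, had FPKM of 8.33, 8.66 and 10.7 in Ctrl and of 11.7, 7.20 and 7.16 in LIP. The groups overlapped, with LIP replicate 1 the highest of all 6 libraries and the other LIP libraries the lowest. Its log2 fold change was 0.22 ± 0.249 (95% interval −0.33 to 0.77, adjusted p = 0.469), and without LIP replicate 1 it was −0.06, so that library decided its sign. The light chain gene B2m had a log2 fold change of 0.38 (adjusted p = 0.00406) with TMM, a call that was lost with library totals and turned to lower with quantile normalization and with the neutrophil scaling. The ratio of Fcgrt to B2m differed by −0.20 on the log2 scale (exact permutation p = 0.6, adjusted 0.60), and ranged from −0.47 without LIP replicate 1 to −0.06 without LIP replicate 3. It was also −0.06 without Ctrl replicate 3, −0.07 without LIP replicate 2 and −0.32 without Ctrl replicate 2.

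Fcer2a, the B cell IgE receptor CD23, had FPKM of 113, 137 and 130 in Ctrl and of 10.9, 15.9 and 14.7 in LIP. All LIP libraries were far below all Ctrl libraries. CPM fell from 380 ± 42.0 to 51.3 ± 9.39, a LIP to Ctrl ratio of 0.135 (95% interval 0.106 to 0.172, log2 −2.89 ± 0.158, adjusted p = 3.27e-07). Fcrla had FPKM of 95.6, 101 and 90.1 in Ctrl and of 11.1, 11.3 and 13.7 in LIP, again without overlap. Its CPM fell from 162 ± 10.8 to 25.3 ± 2.93, a ratio of 0.156 (0.127 to 0.192, log2 −2.68 ± 0.135, adjusted p = 2.24e-07). Both calls were made in all 17 alternative fits.

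The 12 B cell markers were all called lower, at log2 values between −2.72 and −2.33 (median −2.55). Cd79a, Ly6d and Cd79b, the most abundant, stood at −2.63, −2.57 and −2.61. Fcer2a over the geometric mean of these markers was 1.37, 1.84 and 1.62 in Ctrl and 1.05, 1.38 and 1.27 in LIP (log2 difference −0.39, exact permutation p = 0.2, adjusted 0.36). Fcrla over the same mean was 1.16, 1.36 and 1.13 in Ctrl and 1.07, 0.989 and 1.19 in LIP (log2 difference −0.17, exact permutation p = 0.3, adjusted 0.36). Both ratios overlapped between the groups, whereas the genes themselves did not. The part that the fall of B cell RNA plays in the fall of either gene was not tested. For Fcer2a the overlap rested on Ctrl replicate 1, without which the difference was −0.50 at the smallest exact permutation p of 0.1, and leaving out the other libraries gave −0.47 to −0.27. For Fcrla the difference was −0.08 without Ctrl replicate 2 and −0.10 without LIP replicate 2. With a pseudocount of 1 in place of 0.1 both differences reached the smallest p of 0.1, at −0.52 and −0.29. The Fcrla value is uncertain in part, since Gm2962 lies inside the gene on the same strand and was counted with 616, 681 and 641 reads in Ctrl and 444, 412 and 315 in LIP, beside 9572, 10411 and 8923 and then 1182, 1210 and 1355 reads for Fcrla.

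Of the members, 5 lie among 18 listed genes within 317 kb of chromosome 1 (170917576 to 171234365, GRCm38), in the order Fcrla, Fcgr2b, Fcgr4, Fcgr3 and Fcer1g. Along this stretch the log2 fold change ran from −2.68 in Fcrla through 0.34 in Fcgr2b to 1.48, 1.67 and 1.52 in the last 3. The 5 other tested genes of the stretch held 1 gene called higher, Pcp4l1 (log2 1.18, adjusted p = 0.0133), and 1 called lower, Tomm40l (log2 −1.12, adjusted p = 0.0320). The remaining members lie apart, Fcgr1 at chr3:96282909-96293969, Fcgrt at chr7:45092990-45103851 and Fcer2a at chr8:3681737-3694175.

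**Figure D4:**
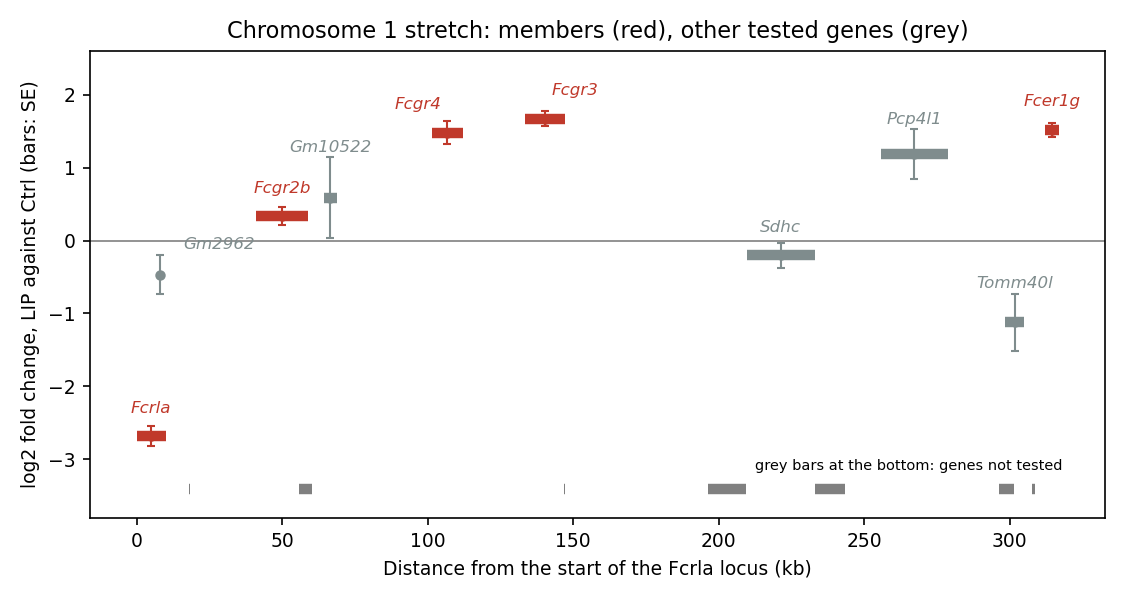
log2 fold change (TMM scaling, bars SE) of the genes between Fcrla and Fcer1g on chromosome 1, drawn by distance in kb from the lower-coordinate end of Fcrla; horizontal bars span each gene, members in red, other tested genes in grey and genes not tested as grey bars at the bottom. The B cell gene Fcrla lies at −2.68 and Fcgr4, Fcgr3 and Fcer1g at 1.48 to 1.67, and the 5 other tested genes between them range from −1.12 (Tomm40l) to 1.18 (Pcp4l1).

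Of 12 further Fc receptor and Fc receptor-like genes, 3 passed the limit for testing. Fcmr, the IgM receptor of lymphocytes, was lower in LIP (log2 −2.86, adjusted p = 5.74e-08, FPKM 404 ± 40.2 in Ctrl and 45.0 ± 1.34 in LIP, n = 3 each), as was Fcrl1, a B cell surface receptor (log2 −1.07, adjusted p = 0.00123). Fcer1a, the IgE-binding chain of mast cells and basophils, was not called (log2 0.59, adjusted p = 0.360). The other 9 had a mean FPKM under 1.

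Among receptors that use the FcRγ chain, all 7 tested were called higher with TMM, with a median log2 fold change of 1.497, against 4 of 7 with limma on log2(FPKM + 1). With the neutrophil scaling 1 was higher and 2 lower, beside 111 higher and 8927 lower of all 10440 genes tested. Clec4e (Mincle) stood at 1.88 (adjusted p = 1.03e-07) and Clec4d at 1.66 (adjusted p = 2.21e-07), both receptors for microbial glycolipids. The list also holds Gp6, a platelet receptor (1.08, adjusted p = 0.00990), and the NK cell receptors Ncr1 (0.55, adjusted p = 0.0276) and Klrb1c (0.59, adjusted p = 0.00644). Beside them, 6 of 6 platelet markers and 2 of 6 NK cell markers were called higher with TMM, and the part of these cells in the list's values was not tested. Of the related adaptors, Tyrobp (DAP12), which carries an ITAM, was at 1.52 (adjusted p = 2.83e-07) and Hcst (DAP10) at 0.81 (adjusted p = 0.000321), whereas Cd247, the ζ chain of T and NK cells, was at −1.74 (adjusted p = 0.000352). Tyrobp was also among the 3 genes nearest to Fcer1g in pattern.

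Of 22 genes of activating signalling below the receptors, 21 were tested, 15 were called higher and 1 lower, with a median of 0.97. With the neutrophil scaling 0 were higher and 17 lower, where 8927 of all 10440 genes tested were called lower. Gab2, a docking adaptor, rose by 1.99 on the log2 scale (adjusted p = 1.17e-06) and the Src family kinase Fgr by 1.83 (adjusted p = 5.36e-07), and Lat2, an adaptor of B and myeloid cells, fell by 1.31 (adjusted p = 8.85e-05). The inhibitory list had 4 of 11 called higher and 1 lower, with a median of 0.30, and 0 higher and 11 lower with the neutrophil scaling. It held Cbl (0.98, adjusted p = 0.00193) and Dok3 (0.92, adjusted p = 1.82e-05) on the higher side and Cblb (−1.18, adjusted p = 0.000616) on the lower. The difference between the lists was not tested.

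All 5 tested complement and opsonin receptors were called higher with TMM (median 1.47), and 0 with the neutrophil scaling, under which 111 of all 10440 genes tested were. Itgam (CD11b, used in the sort) stood at 1.74 (adjusted p = 4.39e-05) and C5ar1, the C5a receptor, at 1.62 (adjusted p = 1.55e-07). Of the immunoglobulin constant genes, 6 were tested and 3 were called lower, Igkc at −2.56 (adjusted p = 8.50e-08) and Ighm at −2.15 (adjusted p = 5.31e-08) among them. The IgG genes Ighg1 (1.02, adjusted p = 0.0578) and Ighg2b (0.63, adjusted p = 0.139) were not called. Ighg2c was called higher (1.86, adjusted p = 0.0121) at a mean FPKM of 1.11, and without Ctrl replicate 3 no gene of this list was called higher.

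**Figure D5:**
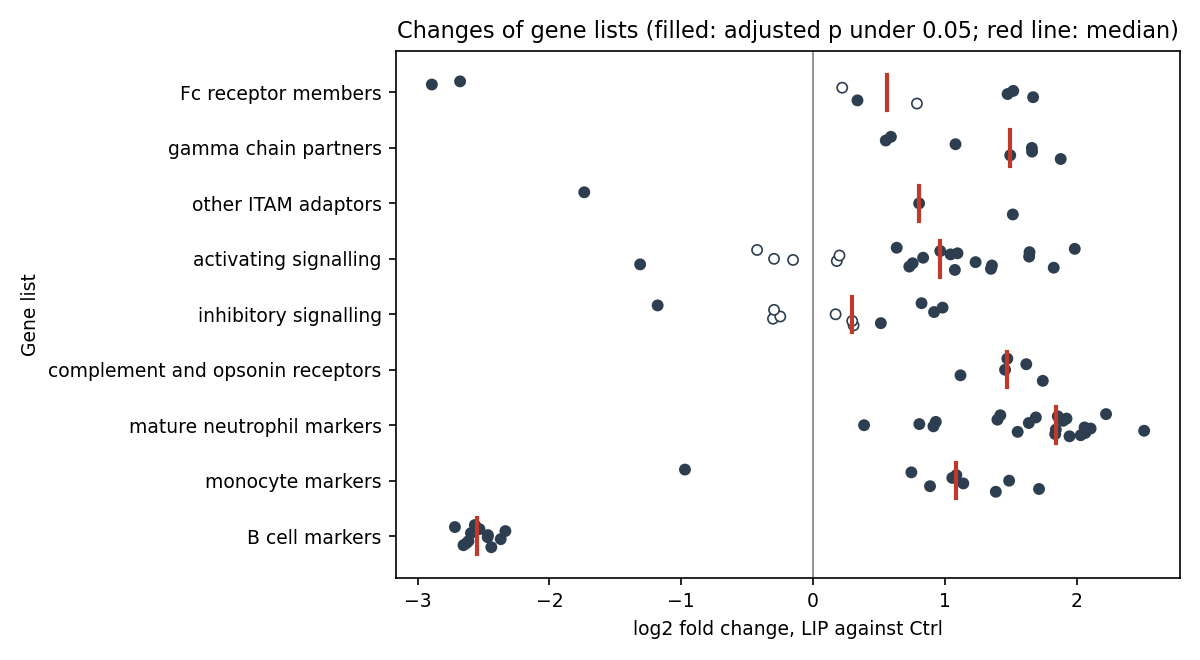
log2 fold change (TMM scaling) of the tested genes of 9 lists, 1 point per gene, filled where the adjusted p is under 0.05 and open where it is not, with a red line at each list's median. The members spread from −2.89 to 1.67, the FcRγ chain partners and complement receptors lie above 0, and the B cell markers lie between −2.72 and −2.33.

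The genes whose CPM pattern over the 6 libraries was nearest to each member, by root mean square distance on the log2 scale after removing each gene's mean, are given as a description. Nearest to Fcgr3 were Ifitm3 (distance 0.0374), Arg2 and Gm5150. Nearest to Fcer1g were Nfkbia (0.0419), Tyrobp and Spi1, the gene of PU.1. Nearest to Fcgr4 were Dhrs7 (0.0789), Glrx and Atxn10. Nearest to Fcer2a were the T cell gene Cd3e (0.108), the homing receptor gene Ccr7 and the B cell gene Ms4a1, and nearest to Fcrla were H2-DMb2 (0.0736), Igkv3-2 and Igkj1. Fcgr2b was nearest to Rer1 (0.0361), Spag7 and Atp6v1f, Fcgr1 to Orai3 (0.118), Tab2 and Abhd5, and Fcgrt to Nemp2 (0.0563), 5031434O11Rik and Taf5.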

How the data were processed

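Neutrophils of 3 Ctrl and 3 LIP pools were sequenced with Smart-seq2 on an Illumina NovaSeq. The authors deposited raw read counts and FPKM values per gene with GRCm38 coordinates. The submitters' processing notes name cutadapt 1.9, FastQC and GRCm38, and the aligner, the counter and the use of strand are not given in the sources used here. Groups came from the sample titles. The 10440 of 29097 genes whose FPKM averaged 1 or more were tested on counts with edgeR 4.0.16 (R 4.3.3), by the quasi-likelihood test with TMM normalization and Benjamini-Hochberg adjustment over all genes tested. Ratios were taken on FPKM + 0.1 and tested by exact permutation over libraries. DESeq2 1.42.0, limma 3.58.1, other scalings, filters and pseudocounts, a replicate block and leaving out each library were alternatives, and edgeR was tested on simulated data. The members and gene lists were chosen with earlier results of these data known. The 8 members were named, with the 2 highest and 2 lowest called genes of each list and every gene of lists of 3 or fewer. The 3 most abundant markers of a list set beside a member and the 3 nearest patterns per member were named too. Fcer1a, Gp6, Ncr1, Klrb1c, Ighg1, Ighg2b and the genes in the chromosome 1 stretch were added after their values were seen.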

Additional observations from a re-analysis of the deposited data

How the results depend on the processing

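Of the 17 alternative fits, the scaling on mature neutrophil genes changed the counts of members most, to 0 higher and 5 lower, and turned the sign of Fcgr1 (−0.89), Fcgr2b (−1.33), Fcgr3 (−0.0048), Fcgr4 (−0.20), Fcer1g (−0.15) and Fcgrt (−1.44), all on the log2 scale. By its construction it lowers each gene by about the mean rise of the neutrophil genes, and 8927 of all 10440 genes tested were called lower with it. Fcgrt, not called in the report, was also below 0 with library totals (−0.0995), with limma on log2(FPKM + 1) (−0.104) and on log2(FPKM + 0.1) (−0.117), and without LIP replicate 1 (−0.0606), where leaving out each library in turn gave up to 0.346. Fcer1g, Fcgr3 and Fcgr4 were called higher in the other 16 fits, and Fcer2a and Fcrla lower in all 17. Library totals moved the median of all genes by −0.32 and quantile normalization by 0.12. No ratio changed its sign under any alternative. The replicate numbers did not pair the libraries, with correlations of −0.011, 0.044 and 0.022 between same-numbered libraries, and with the number as a block 5546 genes were called in place of 5601 and no call of a member changed. For the ratios the paired test cannot give a p under 0.25, and gave 0.25 for the ratios of the activating receptors to Fcgr2b and of Fcer2a to the B cell markers, and 0.5 to 0.75 for the other 4. Fcgr1 had the fewest reads of the members, 228 to 526 per library, and the mixture of cells in the sorted pools was not measured.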
